A study of Mus musculus with 20 samples.

Results

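The integrated stress response genes described here are the transcription factor gene Atf4 and 9 genes that act with it or are known as its targets: Atf5, Ddit3, Trib3, Ppp1r15a, Chac1, Slc7a11, Psat1, Asns and Sesn2. They were taken by symbol, through Ensembl identifier, from a table of raw read counts, and all 10 were found among its 56941 gene rows and passed the filter on low counts with which 16778 genes were tested. The libraries came from the whole soleus muscle, a slow hind-limb muscle, of 1 hind limb of C57BL/6J mice. The exposed group of 10 mice received 14 days of hind-limb unloading, ionizing radiation and a stress hormone treatment given through the diet, all applied together. The 10 control mice had sham irradiation, and the design text describes its conditions as similar. The labels name no transgene, age or batch. The effects of the 3 exposures cannot be told apart, and in whole muscle fewer cells of a type and less RNA per cell cannot be told apart either.

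The integrated stress response begins when stress-activated kinases phosphorylate the translation initiation factor eIF2, which lowers general protein synthesis while the Atf4 message is translated more. ATF4 protein then pairs with C/EBP and related factors and switches on genes for amino acid synthesis, amino acid import, glutathione turnover and feedback on the pathway. In skeletal muscle, ATF4 is known for its part in the loss of fibre size during disuse, fasting and ageing, and mRNA counts do not measure how much of its message is translated.

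The genes did not move as a unit. Slc7a11, Chac1 and Psat1 rose in exposed muscles, by 8.46-fold, 3.86-fold and 2.56-fold. Ddit3, Atf5, Trib3 and, close to the threshold, Ppp1r15a fell, by 1.99-fold, 1.70-fold, 1.53-fold and 1.24-fold. Atf4, Asns and Sesn2 did not pass the test. In edgeR's quasi-likelihood test with Benjamini-Hochberg adjustment, 7 of the 10 were therefore called at an adjusted p under 0.05, 3 raised and 4 lowered, where 57.6% of all tested genes were called, 28.7% raised and 28.9% lowered. The median log2 fold change of the 10 genes was 0.08, against 0.02 over all tested genes, and the median size of the change without its sign was 0.69 against 0.27. With upper-quartile scaling 5840 genes of the table were raised and 4095 lowered, with library size alone 5946 and 3756, against 4813 and 4850 here. The directions given for the 7 called members were the same under these scalings.

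Library totals ran from 17336017 to 43424464 counts, and 4 exposed libraries, replicates 1 to 4, stood apart in markers of another tissue. The summed level of 12 Schwann and nerve markers was 101.7 to 205.1 CPM in controls, 102.0 to 195.0 CPM in exposed replicates 5 to 10 and 543.6 to 1564 CPM in exposed replicates 1 to 4. All 12 rose over all libraries, and 4 rose and 1 fell without those 4, a comparison chosen after seeing the data. Summed adipocyte markers were at 28.9 to 207.5 CPM in controls and 182.6 to 407.5 CPM in exposed replicates 1 to 4. In exposed replicates 5 to 10 they were at 31.0 to 185.5 CPM, and 1 of 7 was raised over all libraries. Macrophage markers had 3 of 9 tested raised, and Fcgr1 was too low to be tested. Endothelial markers had 3 of 8 lowered, fibroblast markers 2 of 8 raised and 4 lowered, and red blood cell markers none of 5 called. Soleus fibre markers, such as Acta1 and Myh7, had 1 of 10 raised and 7 lowered, with a median log2 fold change of -0.85. Their median was -0.73 without exposed replicates 1 to 4, with the same counts of genes. Their summed level mostly follows Ttn, which held 120832402 counts over all libraries, against 7041378 for Acta1, the next highest. The 10 markers summed to 213080 to 265190 CPM in controls. The sums were 181620 to 222580 CPM in exposed replicates 1 to 4 and 221960 to 257340 CPM in exposed replicates 5 to 10. No marker of these lists was at 0 in any library. Without exposed replicates 1 to 4, where 51.3% of the genes tested were called, 3 of the 10 stress response genes were raised and 3 lowered, and the median log2 fold change of the 10 turned from 0.08 to -0.06. Slc7a11, Chac1 and Psat1 then had log2 fold changes of 2.83, 2.19 and 1.27, and Ddit3, Atf5 and Trib3 of -0.72, -0.67 and -0.74, each with an adjusted p of 0.00991 or less in the edgeR test. For Ddit3, exposed replicates 1 to 4 held 3.05 to 3.89 CPM and exposed replicates 5 to 10 held 4.03 to 10.2 CPM. For Sesn2 these ranges were 2.88 to 3.39 CPM and 1.96 to 2.73 CPM. In the other stress response genes the ranges overlapped. The part of nerve and fat tissue in the levels of the 10 genes was not tested.

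The promoters of the 3 raised genes are shown first, because ATF4 is known to act through a composite site that joins an ATF part to a C/EBP part and is best known in the form TGATGNAA. RefSeq promoter windows of the build GRCm38.p6, 250 bases before to 50 bases after the annotated start, were at hand for all 10 genes, and the older build was used for sequence only. TGATGNAA, searched on both strands before the start, was found in 3 of the 10 genes, Slc7a11, Chac1 and Asns. Of 32851 promoters of 27025 genes, 3.45% held it. This share is per promoter and not per gene, and the 10 genes had 12 promoters. A wider form, TGNNGCAA, which overlaps the first where its N is C, was found in 6 of the 10 genes, and 9.59% of all promoters held it. Both forms were chosen with these promoters in view. Capitals mark the matched bases.
Slc7a11, chr3:50443633-50443699, minus strand: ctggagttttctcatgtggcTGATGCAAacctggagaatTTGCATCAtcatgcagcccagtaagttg
Chac1, chr2:119350992-119351076, plus strand: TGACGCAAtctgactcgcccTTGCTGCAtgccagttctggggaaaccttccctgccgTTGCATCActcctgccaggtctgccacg
Psat1, chr19:15925168-15925215, minus strand: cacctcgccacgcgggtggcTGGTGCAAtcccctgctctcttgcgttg
Asns, chr6:7693210-7693252, minus strand: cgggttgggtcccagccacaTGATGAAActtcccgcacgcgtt
Trib3, chr2:152344066-152344113, minus strand: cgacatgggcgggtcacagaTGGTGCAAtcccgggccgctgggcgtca

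Slc7a11, the gene with the largest rise of the 10, held 2 matches to TGATGNAA in opposite orientations, which begin at positions -66 and -47 from the start, and 13 of the 32851 promoters held 2 or more. Chac1 held 1 match to it and 2 further matches to the wider form, and Psat1 held the wider form alone. Asns and Trib3 are shown for contrast. Asns carries the site known as its nutrient-sensing element, and its message did not pass the test. Trib3 has the same 8 matched bases as Psat1 and fell. A match to TGATGNAA also lies after the start of Trib3, at positions 14 to 21, outside the stretch counted here. In Atf5 and Sesn2 the wider form alone was found before the start, and in Atf4, Ddit3 and Ppp1r15a neither. A match is a description of letters and was not tested as a site.

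**Figure D1:**
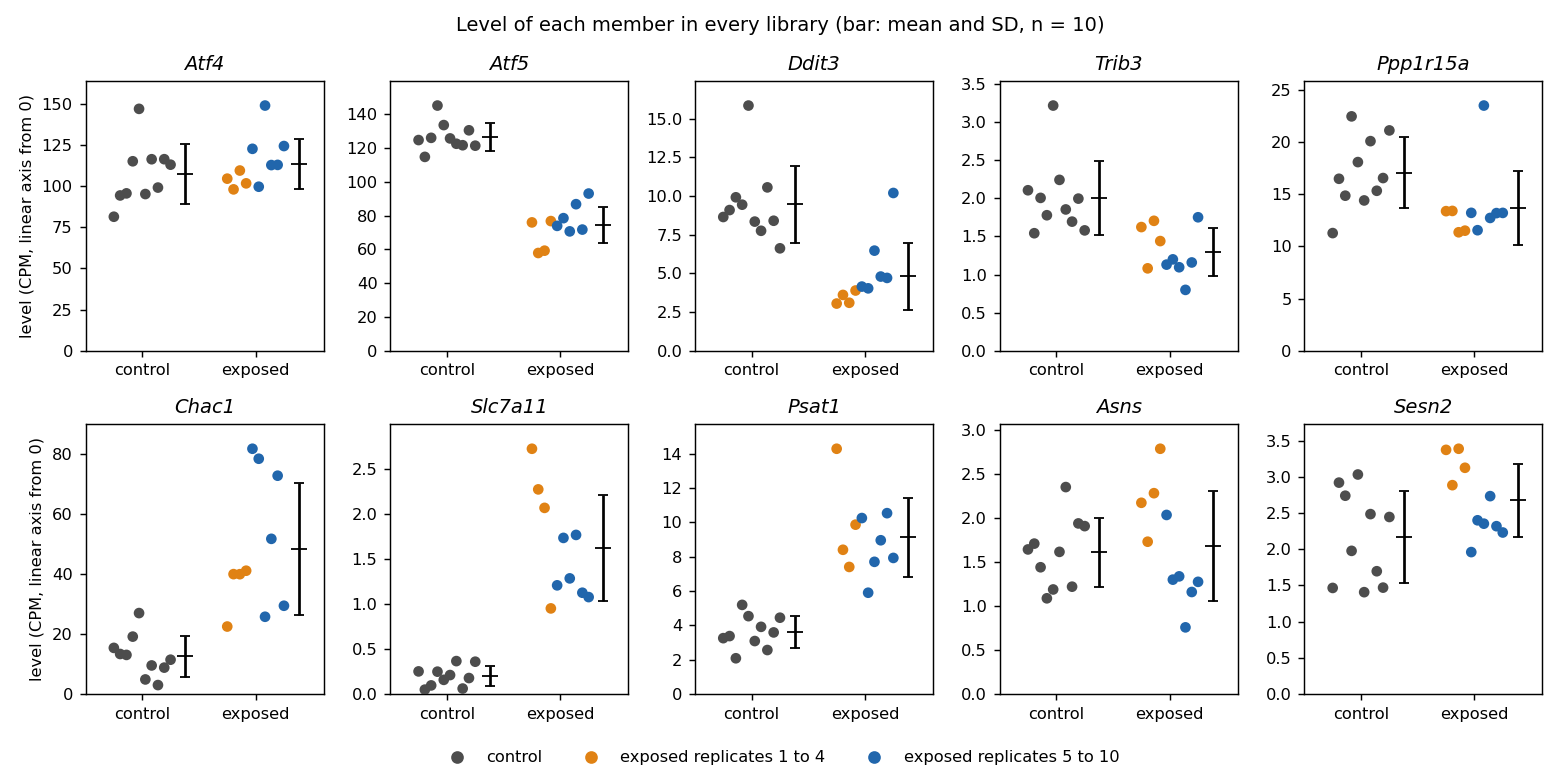
Level of each gene in CPM (counts scaled by TMM-adjusted library size) on a linear axis in every library, with control libraries in grey, exposed replicates 1 to 4 in orange and exposed replicates 5 to 10 in blue; bars give the mean and SD of 10 libraries. The points of Atf5, Slc7a11 and Psat1 do not overlap between the groups, and those of Atf4 overlap.

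Atf4 and its relatives among the transcription factors come first. Atf4 (ENSMUSG00000042406.9) stood at 81.5, 106.2 and 147.1 CPM in the lowest, median and highest control library, where CPM are counts scaled to each library's TMM-adjusted total. In exposed libraries the same values were 98.1, 111.2 and 149.1 CPM. The ranges overlapped, with 4 controls below every exposed library and 1 exposed library above every control, and 6 of 10 exposed libraries were above the control mean. The group means were 107.4 ± 18.3 and 113.6 ± 15.4 CPM (SD, n = 10 each), with a log2 fold change of 0.08 ± 0.095 SE (edgeR adjusted p = 0.458).

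Atf5 (ENSMUSG00000038539.16), a close relative of Atf4 that is translated under the same control and is known for the mitochondrial stress response, fell in every exposed library. Control libraries held 114.7, 125.2 and 145.1 CPM (lowest, median, highest) and exposed libraries 57.8, 74.9 and 93.0 CPM. The highest exposed library was below the lowest control library. The means were 126.6 ± 8.31 and 74.4 ± 10.8 CPM (SD, n = 10 each), a log2 fold change of -0.77 ± 0.073 SE (edgeR adjusted p = 1.15e-09). Per length, Atf5 was the higher of the pair in controls, at 63.5 against 45.6 RPKM (CPM per kilobase of exon), and the lower in exposed muscles, at 37.3 against 48.2 RPKM, although the library ranges of the 2 genes overlapped in each group. Exons of Atf5 share 82 bases, 4.1% of its length, with Nup62 on the opposite strand, and no source used here says whether counting used strand.

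Ddit3 (ENSMUSG00000025408.16) encodes CHOP, a factor downstream of ATF4 that is known for promoting cell death under lasting stress. Its levels were 6.62, 8.86 and 15.8 CPM in controls and 3.05, 4.09 and 10.2 CPM in exposed libraries (lowest, median, highest). Exposed replicate 10, the highest of its group, was the only exposed library above the control mean, and the other 9 lay below every control library. The means were 9.46 ± 2.50 and 4.80 ± 2.14 CPM (SD, n = 10 each), a log2 fold change of -0.99 ± 0.194 SE (edgeR adjusted p = 0.000243). Exons of Ddit3 share 68 bases, 4% of its length, with the opposite-strand gene Mars, a tRNA synthetase gene whose own level rose (40.9 CPM in controls, 47.4 CPM exposed, edgeR adjusted p = 0.000507). A second identifier with the symbol Ddit3 held no counts in any library and was not used.

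Trib3 (ENSMUSG00000032715.10), a pseudokinase induced by ATF4 and CHOP that holds back Akt and ATF4 itself, was low throughout. Its levels were 1.54, 1.93 and 3.22 CPM in controls and 0.799, 1.18 and 1.75 CPM in exposed libraries (lowest, median, highest). All 10 exposed libraries lay below the control mean and 7 below every control. The log2 fold change was -0.61 ± 0.143 SE (edgeR adjusted p = 0.00116) and rests on 19 to 103 counts per library.

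Ppp1r15a (ENSMUSG00000040435.13) encodes GADD34, the subunit that directs protein phosphatase 1 to eIF2 and so ends the response. Control libraries held 11.3, 16.5 and 22.5 CPM and exposed libraries 11.4, 13.2 and 23.5 CPM (lowest, median, highest). In 9 of 10 exposed libraries the level was between 11.4 and 13.4 CPM, below the control mean, while exposed replicate 7 was the highest of all 20. The fall, a log2 fold change of -0.31 ± 0.133 SE, was close to the threshold (edgeR adjusted p = 0.0479). It was called in 5 of the 20 fits that leave out a library: those without control replicates 1, 3, 6 or 8 and without exposed replicate 7, where the log2 fold change was -0.43. It missed the threshold with DESeq2 size factors (adjusted p = 0.0594) and without exposed replicates 1 to 4 (adjusted p = 0.308). Exposed replicate 7 was also the highest exposed library for Atf4 and for the stress factor Atf3, at 134.7 CPM of Atf3 against 39.3 CPM in the next exposed library, and for Jun, at 237.7 against 158.6 CPM. The constitutive relative Ppp1r15b stood at 40.3 and 42.7 CPM in the groups (edgeR adjusted p = 0.133).

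**Figure D2:**
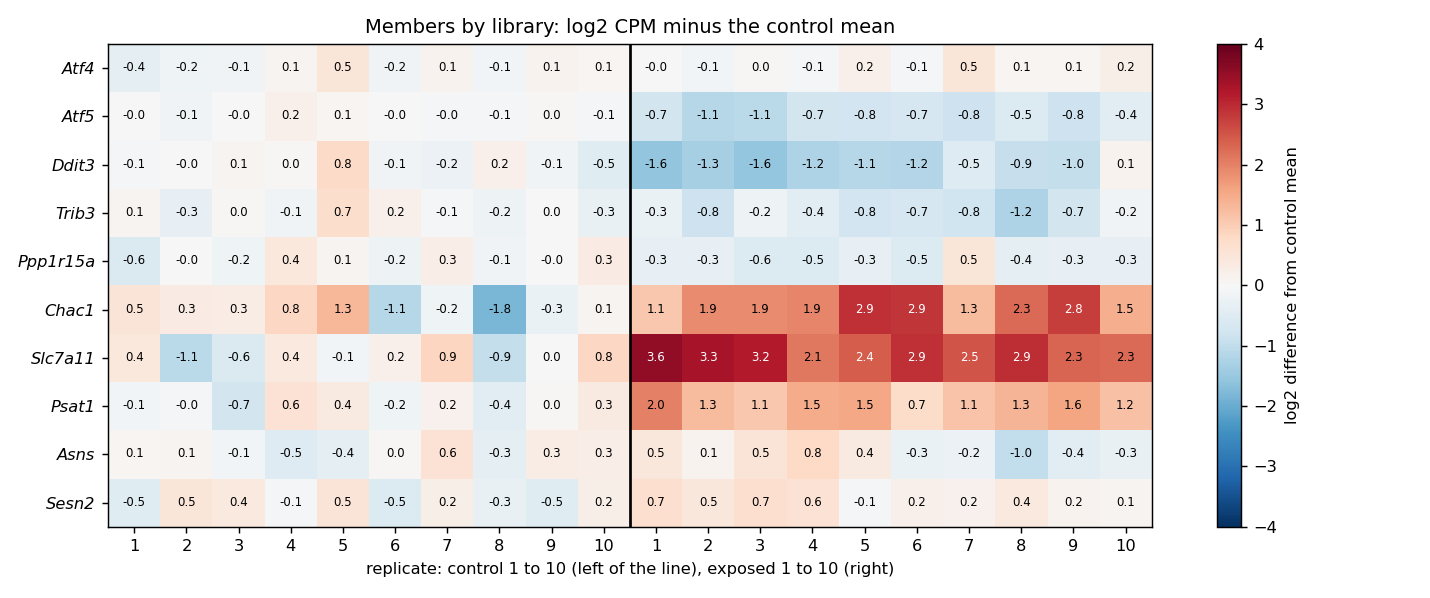
Each cell is log2 CPM of a gene in 1 library minus that gene's mean over the 10 control libraries, with replicates 1 to 10 of each group from left to right. Rows of Chac1, Slc7a11 and Psat1 are above 0 in all 10 exposed libraries, and rows of Atf5 and Trib3 are below 0 in all 10.

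The targets in glutathione and amino acid metabolism held the rises. Chac1 (ENSMUSG00000027313.4), an enzyme that breaks down glutathione, varied widely in both groups. Its levels were 2.94, 12.2 and 26.9 CPM in controls and 22.4, 40.4 and 81.6 CPM in exposed libraries (lowest, median, highest). Exposed replicates 1 and 7 lay below the highest control, which was control replicate 5, and the other 8 exposed libraries lay above every control. The means were 12.5 ± 6.95 and 48.2 ± 21.97 CPM (SD, n = 10 each), a log2 fold change of 1.95 ± 0.36 SE (edgeR adjusted p = 8.43e-05). The coefficient of variation between libraries was 55.6% in controls and 45.6% in exposed muscles, the highest among the 10 genes in the exposed group and the second in controls, after Slc7a11. Chac1 and Ddit3, which are often raised together, changed in opposite directions between the groups. The ratio of their CPM ran from 0.279 to 2.02 in controls and from 2.88 to 19.7 in exposed libraries, with no overlap. The pair was chosen because its genes had changed in opposite directions, so the ratio restates those changes and is no separate result. The related glutathione enzyme gene Chac2 fell slightly (7.15 CPM in controls, 6.27 CPM exposed, edgeR adjusted p = 0.0408), a call that was lost without exposed replicates 1 to 4 (adjusted p = 0.327).

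Slc7a11 (ENSMUSG00000027737.11) encodes the transporter subunit xCT, which brings in cystine for glutathione synthesis in exchange for glutamate. It was barely detected in controls, at 0.0475, 0.193 and 0.364 CPM (lowest, median, highest), and reached 0.949, 1.51 and 2.72 CPM in exposed libraries. Every exposed library lay above every control. The counts behind these values were 2 to 12 per control library, 58 in all, and 27 to 109 per exposed library, 522 in all. The log2 fold change was 3.08 ± 0.267 SE (edgeR adjusted p = 2.5e-09), and 99.9% of tested genes had a lower or equal one. The SE comes from log2 CPM with a prior count of 2, which weighs on counts this low, and not from the edgeR fit. Even in exposed muscles Slc7a11 remained the lowest of the 10 genes per length, at 0.116 RPKM against 0.0141 RPKM in controls. This rank rests on its merged exon length of 13922 bases, the longest of the 10. In CPM its exposed mean, 1.62, was above that of Trib3, 1.30. A stretch of 373 bases in one of its annotated transcripts resembles Tuba1b (96.2% identical), Tuba1a and several tubulin pseudogenes, so that misplaced tubulin reads are possible. Tuba1b stood at 13.6 and 12.9 CPM and Tuba1a at 14.0 and 13.4 CPM in the groups (edgeR adjusted p = 0.54 and 0.707).

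Psat1 (ENSMUSG00000024640.10), an aminotransferase of serine synthesis, rose in every exposed library. Control libraries held 2.08, 3.48 and 5.19 CPM and exposed libraries 5.90, 8.67 and 14.3 CPM (lowest, median, highest). The groups did not overlap, and exposed replicate 1 was the highest. The means were 3.60 ± 0.945 and 9.12 ± 2.31 CPM (SD, n = 10 each), a log2 fold change of 1.35 ± 0.165 SE (edgeR adjusted p = 1.66e-07). Psat1, Slc7a11 and Atf5 were the 3 of the 10 genes whose groups did not overlap, where 17.4% of all tested genes did not.

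Asns (ENSMUSG00000029752.13), asparagine synthetase, is among the best known ATF4 targets, and its level did not separate the groups. Controls held 1.09, 1.63 and 2.35 CPM and exposed libraries 0.756, 1.53 and 2.79 CPM (lowest, median, highest). Exposed libraries lay on either side of the control mean, 5 above and 5 below, with a log2 fold change of 0.08 ± 0.202 SE (edgeR adjusted p = 0.738). Exposed replicates 1 to 4 held 1.73 to 2.79 CPM and replicates 5 to 10 held 0.756 to 2.03 CPM. Without replicates 1 to 4 the log2 fold change was -0.28 (edgeR adjusted p = 0.223).

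Sesn2 (ENSMUSG00000028893.9), a leucine sensor that restrains mTORC1, lay higher in exposed libraries without passing the test. Its levels were 1.41, 2.21 and 3.03 CPM in controls and 1.96, 2.56 and 3.39 CPM in exposed libraries (lowest, median, highest). The ranges overlapped, with 9 of 10 exposed libraries above the control mean. The log2 fold change was 0.30 ± 0.158 SE (edgeR adjusted p = 0.0965). It passed the threshold with upper-quartile scaling (adjusted p = 0.0447), with library size alone (adjusted p = 0.0399) and without control replicate 5 (adjusted p = 0.0466), and was 0.10 without exposed replicates 1 to 4 (adjusted p = 0.665). Of its relatives, Sesn3 fell 1.93-fold (82.2 CPM in controls, 42.6 CPM exposed, edgeR adjusted p = 4.13e-13), and Sesn1 stood at 35.1 and 43.1 CPM (edgeR adjusted p = 0.0567).

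Per length, in RPKM, the order of the 10 genes in controls was Atf5, Atf4, Chac1, Ppp1r15a, Ddit3, Trib3, Psat1, Sesn2, Asns and Slc7a11. Atf5 and Atf4 stood at 63.5 and 45.6 RPKM, the next 3 between 5.52 and 7.63 RPKM, the 4 from Trib3 to Asns between 0.588 and 0.942 RPKM, and Slc7a11 at 0.0141 RPKM. Neighbours within each of these steps overlapped in their library ranges, and neighbours across a step did not. In exposed muscles Chac1 reached 29.5 RPKM and its range overlapped that of Atf5, while Psat1, at 2.14 RPKM, had moved ahead of Trib3, at 0.611 RPKM.

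**Figure D3:**
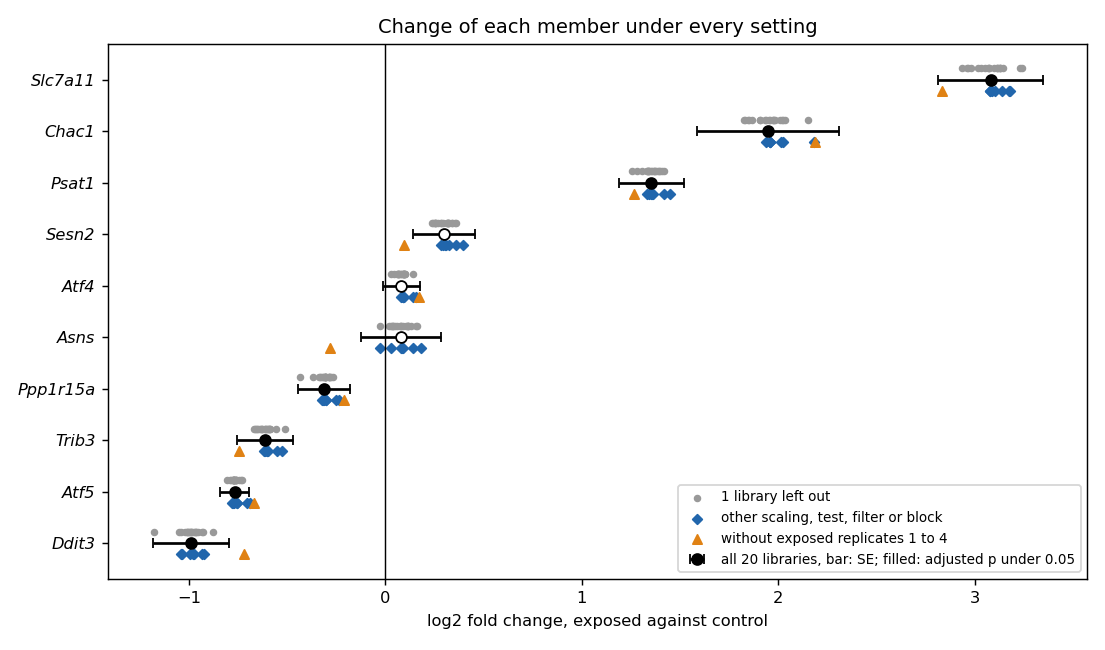
Log2 fold change of each gene, exposed against control: black points with SE bars from all 20 libraries (filled where the adjusted p was under 0.05), grey points with 1 library left out, blue diamonds under another scaling, test, filter or the replicate block, and orange triangles without exposed replicates 1 to 4. Asns is the gene whose points lie on either side of 0, and the orange triangle of Ddit3, at -0.72, is the nearest to 0 of its points.

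Correlations of log2 CPM between Atf4 and each of the other 9 genes were taken within the 10 controls and within the 10 exposed libraries, 18 relations in all, and none passed a permutation test after Benjamini-Hochberg adjustment. The smallest adjusted permutation p for Pearson r was 0.169, for Ppp1r15a in both groups. Ppp1r15a gave Pearson r = 0.723 (permutation p = 0.0188, adjusted p = 0.169) and Spearman rho = 0.709 (permutation p = 0.0271, adjusted p = 0.243) in controls. In controls r was 0.792 without the 2 libraries farthest from the Atf4 median. In exposed libraries Ppp1r15a gave r = 0.806 (permutation p = 0.0155, adjusted p = 0.169) but rho = 0.297 (permutation p = 0.408, adjusted p = 0.815), and r = 0.634 without the 2 farthest libraries. Ddit3 gave r = 0.658 in exposed libraries (permutation p = 0.0454, adjusted p = 0.231) and rho = 0.745 (permutation p = 0.0179, adjusted p = 0.243). Its r in controls was 0.425 (permutation p = 0.216, adjusted p = 0.395) with rho = 0.0909 (permutation p = 0.81, adjusted p = 1), and turned to -0.51 without control replicates 5 and 1.

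The genes of the table whose deviations from their group means were most like those of Atf4 over the 20 libraries were Pwp2 (r = 0.882), Dnajc16 (0.863), Kansl2 (0.823), Sap30 (0.823) and Clint1 (0.82), out of 13865 searched, each averaging 1 CPM or more. These values are the top of a search and carry no test. Kansl2 and Clint1 had log2 fold changes of 0.01 and -0.08 (edgeR adjusted p = 0.882 and 0.0513). Pwp2, Dnajc16 and Sap30 fell, with log2 fold changes of -0.28, -0.41 and -0.45 (edgeR adjusted p = 0.0019, 2.96e-07 and 0.0225).

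The other genes of the pathway were read from lists, described by counts and medians beside the 57.6% of all tested genes that were called. Upstream, among 21 genes of eIF2, its kinases and their regulators (Gcn1l1, Impact, Dnajc3, Oma1 and Dele1), its exchange factor eIF2B and its phosphatase, 5 were raised and 7 lowered with a median log2 fold change of 0.00, a balance that turned to 8 raised and 4 lowered under either upper-quartile or library-size scaling, and to 6 and 4 without exposed replicates 1 to 4. The amino acid sensing kinase gene Eif2ak4 (GCN2) rose 1.24-fold (13.5 ± 0.823 CPM in controls, 16.7 ± 0.801 CPM in exposed muscles, SD, n = 10 each, with an edgeR adjusted p of 1.31e-06), and its activator Gcn1l1 rose 1.38-fold. The RNA-sensing kinase gene Eif2ak2 (PKR) fell 1.46-fold (edgeR adjusted p = 1.28e-05). Eif2ak3 (PERK), the kinase of the endoplasmic reticulum, stood at 9.35 and 9.52 CPM (edgeR adjusted p = 0.726). Of the eIF2B subunit genes, Eif2b3 rose 1.20-fold and Eif2b4 fell 1.23-fold, and the eIF2 subunit gene Eif2s3x fell 1.18-fold.

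Factors that pair or compete with ATF4 were mixed as well. Of 15 tested, 6 were raised and 4 lowered, or 7 and 2 under either upper-quartile or library-size scaling, with a median log2 fold change of 0.11. The C/EBP factor Cebpd rose 2.49-fold (10.2 ± 2.92 CPM in controls, 25.2 ± 9.84 CPM in exposed muscles, SD, n = 10 each, with an edgeR adjusted p of 0.000125). Cebpa rose 2.17-fold, a call that was lost without exposed replicates 1 to 4 (adjusted p = 0.141), and Atf2 rose 1.11-fold. Nfe2l1, a factor that governs proteasome genes, fell 1.95-fold, Nfe2l2, the main antioxidant factor, fell 1.23-fold, and Cebpg fell 1.11-fold, a call that was lost without exposed replicates 1 to 4 (adjusted p = 0.195).

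Genes of serine, one-carbon and amino acid synthesis were more often lower, in contrast to Psat1. Of 14 tested, 2 were raised and 8 lowered (median log2 fold change -0.27). Mthfd2, the mitochondrial folate enzyme and a known ATF4 target, fell 3.29-fold (3.89 ± 0.864 CPM in controls, 1.17 ± 0.298 CPM in exposed muscles, SD, n = 10 each, with an edgeR adjusted p of 5.4e-10), with no overlap between groups. Its partner in mitochondrial folate metabolism, Aldh1l2, rose 2.59-fold (edgeR adjusted p = 1.58e-08). The alanine aminotransferase gene Gpt2 rose 4.20-fold, the proline synthesis gene Aldh18a1 fell 1.91-fold and the aspartate aminotransferase gene Got1 fell 1.53-fold. Phgdh, which makes the substrate of Psat1, stood at 2.72 and 4.11 CPM (edgeR adjusted p = 0.161), with 4.80 to 10.4 CPM in exposed replicates 1 to 4 and 1.22 to 3.65 CPM in exposed replicates 5 to 10. The part of the nerve markers in these levels was not tested.

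Of 21 genes for cytosolic tRNA synthetases and the tRNA exporter Xpot, 5 were raised and 7 lowered with a median log2 fold change of -0.01, or 8 and 7 with upper-quartile scaling, 9 and 6 with library size alone and 7 and 7 without exposed replicates 1 to 4, where the median was 0.06. Wars, Aars and Sars fell 1.34-fold, 1.29-fold and 1.34-fold, and Vars, Qars and Mars rose 1.41-fold, 1.17-fold and 1.16-fold. Amino acid transporter genes were more often higher, with 7 of 13 raised and 3 lowered (median log2 fold change 0.36, or 0.22 without exposed replicates 1 to 4, with the same counts). Slc43a1, a carrier of branched-chain and aromatic amino acids, rose 3.25-fold (6.52 ± 1.57 CPM in controls, 21.2 ± 6.73 CPM in exposed muscles, SD, n = 10 each, with an edgeR adjusted p of 3.49e-07), Slc7a8 rose 2.58-fold and Slc7a6 1.64-fold. The glutamine carrier gene Slc38a1 fell 3.29-fold, and the ATF4 targets Slc7a1 and Slc1a4 fell 1.41-fold and 1.56-fold.

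**Figure D4:**
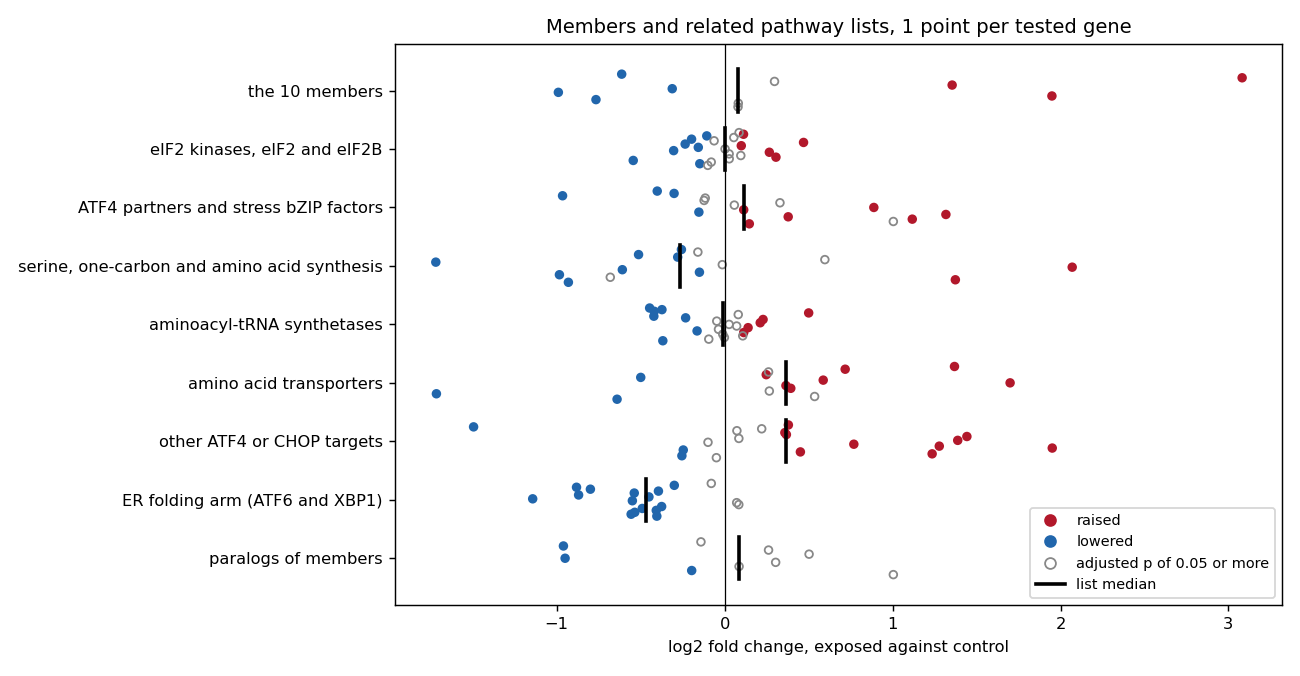
Log2 fold change of the 10 genes (top row) and of the tested genes of 8 related lists, 1 point per gene, with raised genes in red, lowered genes in blue, genes that did not pass the test open and the list median as a black bar. The endoplasmic reticulum folding list lies to the left with no raised gene, and the 10 genes spread from -0.99 to 3.08.

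Other genes known as targets of ATF4 or CHOP were more often higher, with 10 of 18 raised and 3 lowered (median log2 fold change 0.36). Gadd45a, which is known to act below ATF4 in muscle atrophy, rose 2.62-fold (3.72 ± 0.75 CPM in controls, 9.68 ± 1.73 CPM in exposed muscles, SD, n = 10 each, with an edgeR adjusted p of 6.59e-10). The translation repressor gene Eif4ebp1 rose 1.70-fold and the pro-apoptotic gene Bbc3 2.35-fold, while Vegfa fell 2.82-fold, Atg5 1.19-fold and Cars2 1.19-fold, the last a call that was lost without exposed replicates 1 to 4 (adjusted p = 0.0967). The stress hormones Gdf15 and Fgf21 were too low to be tested, at up to 23 counts of Gdf15 and 4 counts of Fgf21 in any control library and up to 8 and 3 in any exposed library.

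The endoplasmic reticulum folding arm of the unfolded protein response is known mainly for ATF6 and XBP1. Of its 18 genes, 15 were lowered and none raised, with a median log2 fold change of -0.47. The counts were the same under each of the scalings tried and without exposed replicates 1 to 4. Hspa5 (BiP) fell 2.21-fold (181.7 ± 16.0 CPM in controls, 82.2 ± 8.09 CPM in exposed muscles, SD, n = 10 each, with an edgeR adjusted p of 6.58e-14), and Pdia6 and Calr fell 1.74-fold and 1.47-fold. Among relatives of the 10 genes, 3 of 9 were lowered and none raised, or 2 lowered and 3 raised under either upper-quartile or library-size scaling. Without exposed replicates 1 to 4, 2 were lowered and 1 raised, Atf3 (log2 fold change 1.66, edgeR adjusted p = 0.0155). Over all libraries Atf3 had a log2 fold change of 1.00 (edgeR adjusted p = 0.18). Controls held 9.90 to 34.1 CPM of Atf3, exposed replicates 1 to 4 held 2.30 to 6.84 CPM and exposed replicates 5 to 10 held 2.73 to 134.7 CPM. The genes lowered over all libraries were Sesn3, Chac2 and Trib1, a pseudokinase like Trib3, which fell 1.95-fold (35.6 CPM in controls, 18.3 CPM exposed, edgeR adjusted p = 3.87e-06).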

How the data were processed

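RNA was measured in 20 soleus libraries, 10 control and 10 exposed, depleted of ribosomal RNA and made from 90 ng of total RNA, per the labels' protocols. The authors deposited whole-number counts for Ensembl gene identifiers, not normalized. Per the submitters' processing notes, MultiQC 1.15, Subread, featureCounts 1.5.1, edgeR and the build GRCm39 were used (roles not given). Strand use and the handling of multi-mapping reads were not stated. Counts summed to 17336017 to 43424464 per library. No library columns were identical. The p-values reflect differences among these libraries.

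Columns were matched by the library codes in the sample descriptions. Names and exon lengths came from GENCODE M21 (GRCm38) by Ensembl identifier, for 51948 of 56941 rows, and promoters from RefSeq (GRCm38.p6). Counts were tested in R 4.3.3 with edgeR 4.0.16 (filterByExpr with minimum count 10, TMM, robust quasi-likelihood, Benjamini-Hochberg over all tested genes). The SE is that of the difference of mean log2 CPM (prior count 2), and not that of the edgeR log2 fold change it stands beside. RPKM is CPM per kilobase of merged exons. Correlations used 100000 permutations (scipy 1.17.1). The fit was tested first on simulated data in which a small part of the genes changed. That setting does not cover these data, where 57.6% of tested genes were called. The members and lists were chosen with earlier results of these data known. The text names the 10 members, up to 3 called genes per direction in each pathway list by smallest p, and the 5 genes most like Atf4; Eif2ak3, Phgdh, Atf3, Jun, Gdf15, Fgf21, Ppp1r15b, Sesn1 and the look-alike genes were added after their values were seen. Alternatives were DESeq2 1.42.0, limma-voom (limma 3.58.1), other scalings, no filter, the sample number as a block, each library left out and a prior count of 0.5 for levels.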

Additional observations from a re-analysis of the deposited data

Results flagged for a closer look

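In 6 of 20 sets of 10 libraries (each gene in each group), 1 library lay apart by more of the group's range in CPM than Dixon's 95% limit allows. About 1 in 20 independent sets of normally distributed values would pass that limit. The sets here share libraries, so 6 of 20 was not tested against chance. Control replicate 5 was the highest control for Atf4 (147.1 CPM, next 116.4), Ddit3 (15.8 CPM, next 10.6) and Trib3 (3.22 CPM, next 2.24), and also held the most Chac1 and Sesn2 of the controls. Exposed replicate 7 was the highest exposed library for Atf4 (149.1 CPM, next 124.4) and for Ppp1r15a (23.5 CPM, next 13.4). Exposed replicate 10 was the highest for Ddit3 (10.2 CPM, next 6.47).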

How the results depend on the processing

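The count of members called was 3 raised and 4 lowered and stayed between 3 and 4 in each direction under every alternative tried. With 1 library left out, all tested genes gave 4631 to 4811 raised and 4750 to 4868 lowered. Of the single genes, Slc7a11, Chac1, Psat1, Atf5, Ddit3 and Trib3 kept their direction and call under every alternative. Asns (log2 fold change 0.08) reversed to -0.0249 with limma-voom, -0.0287 without exposed replicate 4 (range -0.0287 to 0.159 with 1 library left out) and -0.28 without exposed replicates 1 to 4, not past the threshold in any of these; the cause was not tested. Ppp1r15a lost its call with each other scaling, with no filter and with 15 of the libraries left out. Levels in controls moved by less than 1 SD with a prior count of 0.5. The labels do not tie same-numbered mice. Same-numbered libraries correlated at -0.13 to 0.098 in their deviations, none of 10 pairs over 0.1, which cannot show how mice were housed or processed. With the replicate block, 3 members were raised and 4 lowered, and 4654 genes were raised and 4816 lowered over all. Depth limits Slc7a11 most, with 2 to 12 counts per control library.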
